A study of Homo sapiens with 6 samples.

Results

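To describe how genes of the canonical Wnt pathway behaved when cells were deprived of iron, the levels of 10 of them were followed in K562, a suspension line derived from a human myeloid leukemia that keeps erythroid features. The 10 genes, CTNNB1, AXIN1, AXIN2, APC, AMER1, GSK3B, LEF1, TCF7, TCF7L2 and RNF43, were taken by gene symbol from 62252 annotated genes, with AMER1 known beforehand to be lower after chelation, so their change between the groups is given here as a description without a test. A set of 3 cultures were kept overnight with 10 µM 21H7, a membrane-permeable iron chelator (Chelator), and another 3 received the same volume of its solvent DMSO. No other agent and no genetic change set the groups apart, all cells were of 1 line, and the labels number 3 replicates in each group.

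Canonical Wnt signaling turns on the stability of beta-catenin, the product of CTNNB1. Without a Wnt ligand, a destruction complex built on AXIN1 or AXIN2 and APC lets the kinase GSK3B mark beta-catenin for degradation. When a ligand engages Frizzled and LRP receptors the complex is disabled, and beta-catenin enters the nucleus to act with the DNA-binding proteins LEF1, TCF7 and TCF7L2. AMER1 is a membrane-associated protein that binds APC and acts in both directions on the pathway, and RNF43 is a ubiquitin ligase that removes Frizzled receptors from the cell surface. AXIN2 and RNF43 are themselves transcribed in response to beta-catenin in many tissues.

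The libraries held 78615500 to 101094957 estimated counts. The errors given are the spread between the 3 libraries of a group, and the error from dividing shared reads among transcripts was not measured. The 10 markers of K562 and erythroid cells were all at a mean of at least 1 TPM (a level scaled to the library total and corrected for transcript length), and their summed level was 11785 to 13045 TPM in DMSO and 16475 to 17593 TPM in Chelator. The globin gene HBG2 alone averaged 6130 TPM over all libraries, and the lowest marker, EPOR, 9.81 TPM. Among the markers of other cells, those of B cells and fibroblasts summed to at most 3.23 and 3.90 TPM in any library, with the B cell gene MS4A1 at 0 in all of them. The summed T cell markers were 10.8 to 17.0 TPM in DMSO and 39.9 to 41.7 TPM in Chelator, nearly all of it CD3D (mean 26.3 TPM) with CD3E at a mean of 0.298 TPM, and the epithelial markers were 62.4 to 68.9 TPM and 45.8 to 50.4 TPM, nearly all of it EPCAM with KRT5 at 0.00321 TPM. The part of these shifts in the results was not tested. The difference between a transcript's length and its effective length, which follows the length of the sequenced fragments, was 252 to 264 bases in DMSO and 200 to 218 bases in Chelator, and the part of fragment length cannot be told apart from that of the treatment. Within the groups, DMSO replicate 2 and Chelator replicate 1 stood apart. A chi-square statistic of counts, averaged over genes, was 63.6 and 44.4 between DMSO replicate 2 and the others of its group against 8.53 between those, and 30.0 and 28.1 against 6.54 for Chelator replicate 1. Mitochondrial genes held 4.42% of the counts in DMSO replicate 2 and 6.65% and 7.06% in the other DMSO libraries. AMER1, APC and RNF43 were highest in DMSO replicate 2, and their log2 fold changes were -1.82, -0.65 and -0.83 with all libraries and -1.73, -0.58 and -0.68 without it. Without Chelator replicate 1 they were -1.83, -0.72 and -0.83.

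The following stretches of sequence show where the coding sequence begins in both main forms of TCF7, and the coding exon by which the main forms of AXIN1 differ. Neither gene passed the test of transcript usage. The sequences are from GENCODE release 44 transcripts on GRCh38 and are written from 5′ to 3′ on the strand of the gene. For TCF7, the coding bases of the first exon of the full-length transcript TCF7-201 lie at chr5:134114907-134115155 on the plus strand, and the first coding bases of the shorter TCF7-221 lie at chr5:134115938-134116033 on the same strand, with the start codon of each in capitals. For AXIN1, exon 9 of 11 of AXIN1-201 lies at chr16:291190-291297 on the minus strand, is wholly coding and is absent from AXIN1-202. It is given in capitals between 20 spliced bases of each neighbouring exon.
TCF7-201 coding bases of exon 1: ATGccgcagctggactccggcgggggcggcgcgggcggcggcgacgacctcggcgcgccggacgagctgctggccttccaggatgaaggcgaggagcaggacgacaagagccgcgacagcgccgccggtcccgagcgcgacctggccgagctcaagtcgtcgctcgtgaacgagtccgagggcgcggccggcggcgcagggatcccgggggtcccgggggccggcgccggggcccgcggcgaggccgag
TCF7-221 first coding bases: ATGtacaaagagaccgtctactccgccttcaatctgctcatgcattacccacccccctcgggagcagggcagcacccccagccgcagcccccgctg
AXIN1-201 exon 9: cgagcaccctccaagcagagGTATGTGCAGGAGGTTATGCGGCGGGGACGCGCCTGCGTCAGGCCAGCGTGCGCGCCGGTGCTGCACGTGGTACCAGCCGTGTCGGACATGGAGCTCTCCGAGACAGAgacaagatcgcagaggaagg

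The bases printed for TCF7-221 are also part of TCF7-201. Its start codon lies in exon 3 of TCF7-201 and in the same reading frame, 345 coding bases or 115 codons downstream of the full-length start. The first exon of TCF7-221, at chr5:134115607-134115674, is noncoding and begins 926 bases downstream of that of TCF7-201. The amino-terminal part of TCF7, which the shorter form lacks, is known to hold the beta-catenin-binding region, and forms without it can occupy TCF sites without recruiting beta-catenin. AXIN1-201 also holds 274 noncoding bases of exon 1, at chr16:352450-352723, and 1 in exon 11 that AXIN1-202 lacks. Exon 9 of AXIN1 has 108 bases, which is 36 whole codons, so its inclusion leaves the reading frame intact.

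In TPM, the members spanned a wide range, as the plot of their levels shows. CTNNB1 was the most abundant, with 218, 264 and 249 TPM in the DMSO libraries and 215, 191 and 194 TPM in Chelator. AXIN1 came next at 28.7 to 31.9 TPM in DMSO and 35.6 to 39.1 TPM in Chelator. The order of the next 4 genes depended on the group. In DMSO, GSK3B, APC and LEF1 averaged 22.2, 19.9 and 17.5 TPM with overlapping ranges, and TCF7 lay below them at 9.50 TPM. In Chelator, LEF1, TCF7 and GSK3B averaged 21.8, 18.5 and 17.6 TPM, with overlapping ranges between neighbours, and APC lay below them at 12.8 TPM. Transcripts under 1000 bases held 48.8% and 54.2% of the TPM of APC, and over the longer ones alone APC averaged 10.1 and 5.86 TPM and TCF7 9.09 and 15.1 TPM, with overlapping ranges in DMSO. They held 51.7% and 55.3% of the TPM of CTNNB1, which was still the most abundant over the longer ones, at 118 and 89.5 TPM. AMER1 averaged 4.31 and 1.24 TPM in the groups, so that in Chelator it lay among AXIN2, RNF43 and TCF7L2, which stood at 1.40, 1.39 and 1.20 TPM over all libraries with overlapping ranges. All 10 members passed the filter on low counts.

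**Figure D1:**
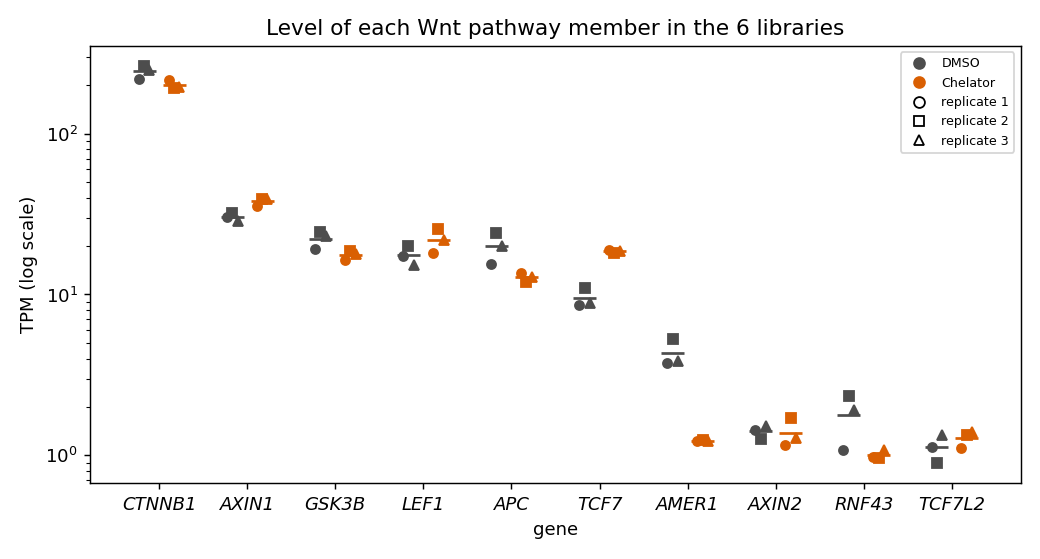
Level of each member in TPM (vertical axis, log scale) in every library, with DMSO in grey and Chelator in orange, the replicate given by the symbol and the group mean by a bar. AMER1 lies at 3.74 to 5.30 TPM in DMSO and at 1.24 TPM in each Chelator library, whereas TCF7 lies at 8.59 to 11.0 TPM and at 18.0 to 18.9 TPM.

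Between the groups, AMER1 was the member with the largest difference and was lower in Chelator, TCF7 was higher, and the remaining members differed by less. Gene levels were compared as normalized counts, which are estimated counts divided by the size of the library and by the average transcript length of the gene in that library. By the rule used for all genes, an adjusted p under 0.05 in DESeq2 and a log2 fold change beyond 1 in size, 1 of the 10 members was called, AMER1, where 10.8% of 24542 genes were called. At an adjusted p under 0.05 alone the count was 8 of 10, 3 higher and 5 lower, where 37.7% of all genes and 59.6% of the 12028 genes that averaged 200 or more normalized counts passed. The groups did not overlap for 7 of the 10 members, where they did not overlap for 49.2% of all genes and 66.6% of those better-counted genes. The median log2 fold change was -0.19 over the members and 0.02 over all genes. Since the choice of members used this contrast, nothing is read from these counts. With changes centred on their mean over genes, as an alternative scaling that moved the median gene from 0.02 to -0.20, AXIN1 came to 0.07, LEF1 to 0.08, TCF7 to 0.74 and CTNNB1 to -0.52.

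**Figure D2:**
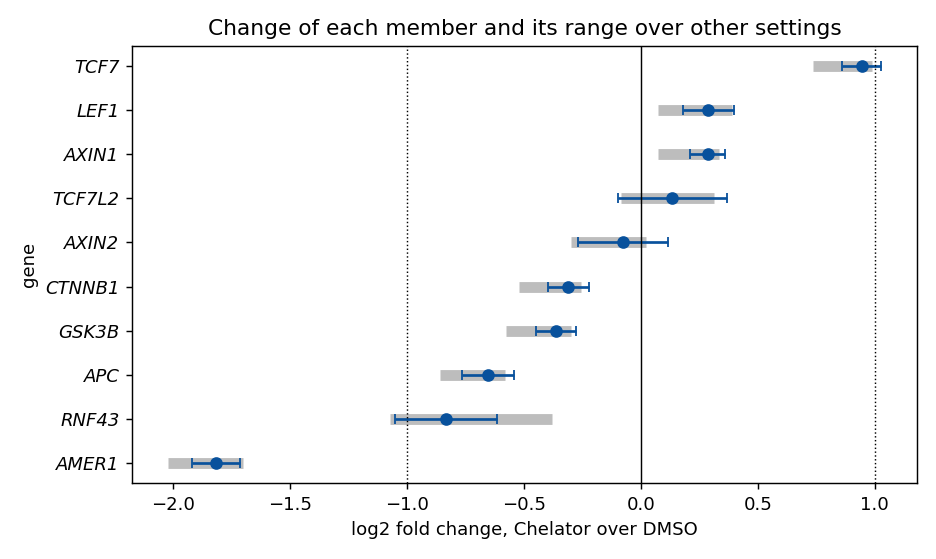
Log2 fold change of each member, Chelator over DMSO (horizontal axis), with its standard error as a bar and, in grey, its range over the other settings tried. Dotted lines mark a log2 fold change of 1 in either direction, and AMER1 lies at -2.02 to -1.70 over the settings.

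Within the destruction complex, AMER1 had 2524.5, 3014.1 and 2569.9 normalized counts in DMSO and 789.9, 745.9 and 766.9 in Chelator. The groups were far apart and the Chelator libraries lay close together. The log2 fold change was -1.82 (SE 0.10), a level 3.52-fold lower. Of 10341 genes that averaged 500 or more normalized counts, 169 were called lower, and 3 of them had a log2 fold change below that of AMER1. Since AMER1 was known beforehand to be lower, nothing is read from its place among other genes. AMER1 has 1 annotated transcript, AMER1-201, of 8407 bases with 3405 coding bases, at chrX:64185117-64205708, so no shift between its transcripts could be measured. Long transcripts in general were lower in Chelator: the median log2 fold change was -0.23 over the 486 genes of at least 6000 effective bases and 0.00239 over the 3439 genes under 1500 bases. None of those 486 genes was lower than AMER1 on this scale, and the part of length in its difference was not tested.

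Among those 10340 other genes, the pattern over the 6 libraries was most like that of AMER1 in ENTPD1, which encodes the cell-surface ATP-hydrolysing enzyme CD39, in the long noncoding RNA LINC00641, and in POLR1G, a subunit of RNA polymerase I. Likeness was the Euclidean distance between log2 normalized counts after each gene's own mean was removed, and it was 0.228, 0.299 and 0.338, where the median gene was at 2.16. ENTPD1 had 1997 ± 110 normalized counts in DMSO and 629 ± 45.8 in Chelator, and POLR1G 5379 ± 219 and 1661 ± 61.8. These genes lie on chromosomes 10, 14 and 19.

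APC, the large scaffold of the complex, had 5711.6, 7478.3 and 7214.9 normalized counts in DMSO and 4740.7, 3903.1 and 4335.5 in Chelator. Every Chelator library was below every DMSO library, with a log2 fold change of -0.65 (SE 0.11). The full coding transcript APC-201, of 10704 bases, was at 7.40 TPM in DMSO and 4.25 TPM in Chelator. The kinase GSK3B was also lower, with 4557.5, 4849.7 and 5362.4 normalized counts in DMSO against 3677.0, 3945.6 and 3862.5 in Chelator, a log2 fold change of -0.36 (SE 0.09). The groups did not overlap.

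The scaffold AXIN1 differed in the other direction. It had 8815.2, 7770.0 and 8185.0 normalized counts in DMSO and 9743.6, 10072.2 and 10392.9 in Chelator, a log2 fold change of 0.29 (SE 0.07) with no overlap. Its inducible relative AXIN2, often read as a reporter of beta-catenin activity, had 411.4, 304.2 and 431.3 normalized counts in DMSO and 314.0, 434.7 and 338.4 in Chelator. The groups overlapped fully, at a log2 fold change of -0.08 (SE 0.19), whose sign turned when DMSO replicate 3 (0.02) or Chelator replicate 1 (0.02) was left out.

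The mRNA of CTNNB1 was modestly lower, and the beta-catenin protein was not measured. CTNNB1 had 27146.9, 27742.6 and 30653.0 normalized counts in DMSO and 25435.7, 21284.9 and 22300.7 in Chelator, which did not overlap, and its log2 fold change was -0.31 (SE 0.09).

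The nuclear partners all had a log2 fold change above 0 in the main fit, though that of TCF7L2 was smaller than its standard error. Whether the changes differed between them was not tested. TCF7, the T cell factor first found in lymphocytes, had 2051.2, 2216.0 and 2089.9 normalized counts in DMSO and 4275.4, 3842.7 and 4112.4 in Chelator. The groups were far apart, and the log2 fold change was 0.94 (SE 0.08), a level 1.92-fold higher that lay just inside the fold limit. LEF1 had 3391.2, 3270.4 and 2936.5 normalized counts in DMSO and 3367.3, 4436.6 and 3919.9 in Chelator, where Chelator replicate 1 lay within the DMSO range, with a log2 fold change of 0.29 (SE 0.11). Leaving out Chelator replicate 2 took it to 0.19, and leaving out replicate 1 of that group to 0.39. Over the other settings tried, the result for LEF1 held in 9 and was weaker in 5. TCF7L2 had 237.9, 157.6 and 278.7 normalized counts in DMSO and 220.1, 251.3 and 268.2 in Chelator. Its groups overlapped, at 0.13 (SE 0.23), and the sign turned without DMSO replicate 2 (-0.07). Annotated exons of TCF7 share 210 exon bases with SKP1 on the opposite strand, a gene at 190 TPM, and strand use in the counting was not given in the sources used here. SKP1 itself was at 5697 normalized counts in DMSO and 7311 in Chelator, a log2 fold change of 0.36, and its part in the TCF7 values was not tested.

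RNF43, the brake on Frizzled, had 350.4, 646.2 and 616.8 normalized counts in DMSO and 300.1, 279.9 and 323.3 in Chelator. DMSO replicate 1 lay close to the Chelator libraries, and the log2 fold change of -0.83 (SE 0.22) became -1.07 without it, past the fold limit. With transcripts of at least 1000 bases alone it was -0.38, less than the main value by more than 1.5 times. The difference between these values follows RNF43-204, a transcript of 497 bases with no defined coding sequence that held 6.01%, 39.2% and 28.6% of the TPM of the gene in DMSO and 0%, 0% and 9.21% in Chelator. RNF43 shares 345 exon bases with TSPOAP1-AS1 on the other strand, which was at 192 normalized counts in DMSO and 227 in Chelator.

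Transcript shares did not enter the choice of members and were tested. With edgeR's test of transcript usage, in which a gene was called at an adjusted p under 0.05 with a share changed by more than 5 percentage points, CTNNB1 and RNF43 were called, 2 of 9 members with more than 1 usable transcript, where 9.26% of 11938 genes were called. For CTNNB1 the adjusted p was 0.0427. CTNNB1-202 held 17.8%, 20.4% and 19.2% of the TPM of the gene in DMSO and 15.4%, 12.5% and 11.3% in Chelator, while CTNNB1-201 was at 13.6% and 13.4% on average. Both, like CTNNB1-203, have 2343 coding bases, and CTNNB1-201 and CTNNB1-202 differ only in untranslated bases. The most abundant entry in TPM, CTNNB1-215, is a 558-base transcript with no defined coding sequence and held 38.1% and 40.2%. In estimated counts it held far less, 1959 to 2112 of 25682 to 28572 per library in DMSO. In Chelator it held 2176 to 2485 of 20938 to 27803. For RNF43 the adjusted p was 0.0142 with edgeR and 0.133 with limma, where the call was lost. The call for CTNNB1 was lost when any 1 library was left out (adjusted p from 0.0800 upwards, edgeR), and that for RNF43 when any 1 Chelator library was left out or when transcripts had to reach 30 counts.

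AXIN1 showed a wide shift of shares that did not pass this test. AXIN1-202, which skips exon 9, held 79.4%, 82.6% and 70.0% of the TPM of the gene in DMSO and 69.3%, 52.7% and 56.5% in Chelator. AXIN1-201, which includes it, held 14.5%, 16.0% and 25.6% against 24.5%, 36.7% and 33.4%. As a share of both transcripts together, AXIN1-201 was 19.5% ± 6.35 in DMSO and 34.8% ± 7.72 in Chelator, with DMSO replicate 3 at 26.8% just above Chelator replicate 1 at 26.1% (n = 3 in each group, two-sided exact permutation p = 0.2, where 3 against 3 cannot go below 0.1). The adjusted p of AXIN1 was 0.0705 with edgeR and 0.00139 with limma, and over the alternatives it ran up to 0.547, passing also without DMSO replicate 3 (0.0204) or Chelator replicate 1 (0.0282). In level, AXIN1-201 was at 5.62 TPM in DMSO and 12.0 TPM in Chelator, and AXIN1-202 at 23.6 and 22.4 TPM.

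For GSK3B, the truncated entry GSK3B-218, with 330 coding bases against 1260 in GSK3B-201, held 23.6%, 23.8% and 28.8% of the TPM of the gene in DMSO and 31.5%, 37.6% and 41.4% in Chelator. The groups did not overlap, but the gene's adjusted p was 1 with edgeR and 0.312 with limma. The adjusted p was also above the threshold for APC (0.279), TCF7 (0.218), TCF7L2 (0.113), LEF1 (1) and AXIN2 (1) in edgeR's test. Without Chelator replicate 1 that of TCF7L2 was 0.00170, and without DMSO replicate 1 that of APC was 0.0429. The transcript with the highest share was AXIN2-208, LEF1-203, TCF7L2-215 and RNF43-208 in those genes, at 57.9%, 32.5%, 27.0% and 46.2% in DMSO and 58.2%, 32.8%, 25.9% and 45.2% in Chelator. The most changed was AXIN2-206, APC-205, LEF1-202 and TCF7L2-210, at 19.2%, 32.7%, 26.5% and 26.8% against 8.72%, 37.1%, 21.4% and 7.73%. Of these, the groups did not overlap for LEF1-202.

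**Figure D3:**
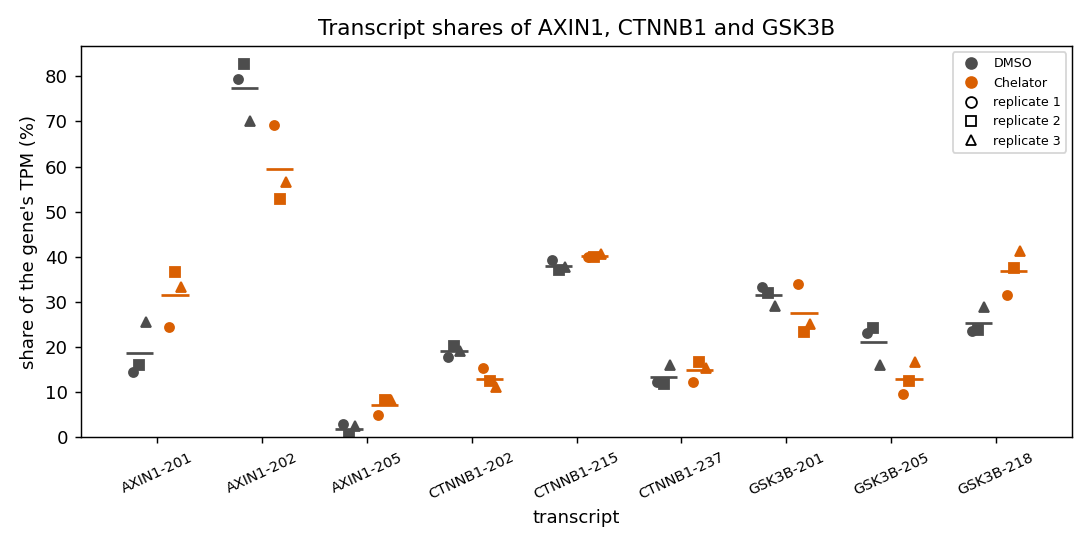
Share of the TPM of the gene (vertical axis, percent) held by the 3 most abundant transcripts of each of AXIN1, CTNNB1 and GSK3B in every library, with DMSO in grey, Chelator in orange and bars at group means. AXIN1-202 averages 77.3% in DMSO and 59.5% in Chelator, and GSK3B-218 averages 25.4% and 36.8%.

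The TCF and LEF genes are known to make both full-length proteins and shorter ones from internal starts, so their transcripts were sorted by where the coding sequence begins. For TCF7, the 2 full-length transcripts held 78.8%, 75.2% and 71.4% of the TPM in DMSO and 61.6%, 62.3% and 59.0% in Chelator. The 12 transcripts with an internal start held 19.2%, 16.2% and 25.6% in DMSO and 35.4%, 28.8% and 35.1% in Chelator. Neither class overlapped between the groups, and the exact two-sided permutation p was 0.1 for each, the smallest that 3 against 3 can give. In level, the full-length class was at 7.13 ± 1.02 TPM in DMSO and 11.3 ± 0.296 TPM in Chelator, and the internal-start class at 1.90 ± 0.330 and 6.14 ± 0.840 TPM. The ratios of these means were 1.58 and 3.23. Of the internal-start class, 8 transcripts begin at the start codon of TCF7-221 shown above, and they were at 1.82 ± 0.437 and 5.67 ± 0.594 TPM.

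The difference in shares lay mostly in short annotated fragments. Transcripts under 1000 bases held 4.13% of the TPM of TCF7 in DMSO and 18.7% in Chelator. Among coding transcripts of at least 1000 bases, the full-length share was 80.2% ± 4.66 in DMSO and 77.0% ± 1.33 in Chelator, the groups overlapped, and the difference was -3.14 percentage points (n = 3 each, two-sided exact permutation p = 0.4). TCF7-221 itself was at 1.53 TPM in DMSO and 3.16 TPM in Chelator, with 16.4% and 17.1% of the gene, whereas TCF7-210 and TCF7-208, of 584 and 600 bases, were at 0.07 and 0 TPM in DMSO and 1.27 and 1.03 TPM in Chelator. Counted in estimated counts in place of TPM, the difference in the full-length share was -4.83 percentage points, against -14.2 in TPM. Without transcripts whose coding start is annotated as incomplete it was -13.0.

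**Figure D4:**
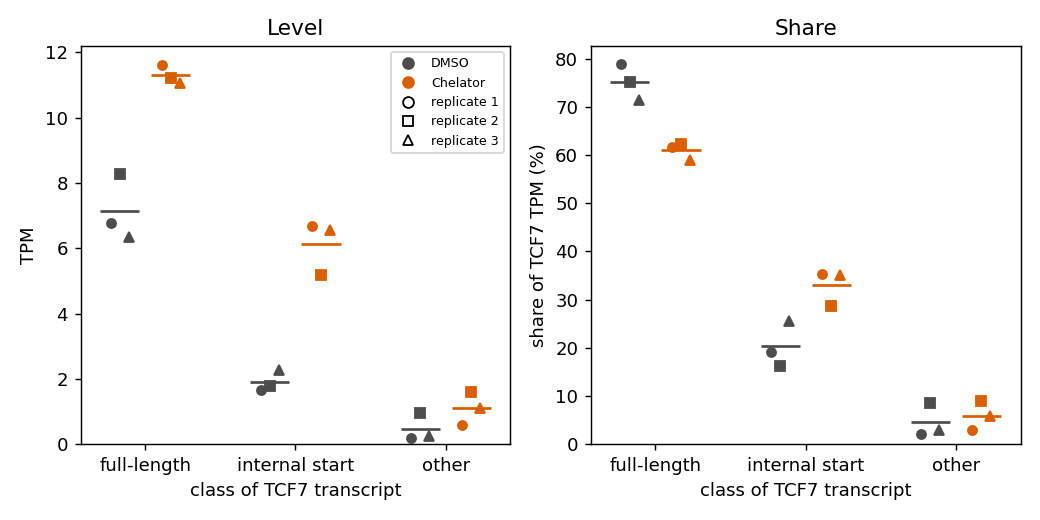
Level in TPM (left) and share of the TPM of TCF7 in percent (right) of its full-length, internal-start and other transcripts in every library, with bars at group means. The full-length share is 71.4% to 78.8% in DMSO and 59.0% to 62.3% in Chelator, a gap that closes to an overlap when coding transcripts under 1000 bases are left out.

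The same split was made for the related genes. The full-length share of LEF1 was 88.6% ± 2.58 in DMSO and 86.7% ± 8.10 in Chelator (n = 3 each, exact permutation p = 0.9), and its difference of -1.88 percentage points became 2.53 without Chelator replicate 2. LEF1 transcripts with an internal start were at 1.03 ± 0.388 and 1.65 ± 0.646 TPM. The full-length share of TCF7L2 was 87.1% ± 9.63 and 86.8% ± 10.6 (n = 3 each, exact permutation p = 1). Its transcripts with an internal start held 4.39%, 3.99% and 1.82% in DMSO, on 4, 1 and 2 estimated counts, and 0% in every Chelator library (n = 3 each, exact permutation p = 0.1). Whether the shift in TCF7 differed from that in LEF1 or TCF7L2 was not tested.

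Of 150 other genes of the pathway, sorted by role, 120 passed the filter on low counts and 113 were given an adjusted p by DESeq2. In its Wald test 30 rose and 26 fell at an adjusted p under 0.05, 49.6% of 113 beside 37.7% of all genes, and 14 were called (12.4% beside 10.8%). Of the 79 that averaged 200 or more normalized counts, 59.5% passed and 8.86% were called, beside 59.6% and 7.41% of all genes at that level. Of all genes, 19.5% rose and 18.3% fell, the shares beside which the counts for each role stand. These shares cover genes at any count level. For genes at 200 or more normalized counts, of which 59.6% passed, no split by direction is given. With changes centred on their mean, 18 rose and 40 fell, at a median log2 fold change of -0.19 beside -0.20 over all genes. The shares of all genes that rose and fell with centring are not given, so counts with centring have no such share beside them. The median log2 fold change was 0.03 over the 113 genes and 0.02 over all genes. The lists were written with earlier results of these data known.

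Wnt ligands were sparse. Of 21 genes for ligands and their secretion, 12 were counted well enough to enter the test, and of the 10 with an adjusted p 2 rose and 1 fell, or 2 and 2 with centring. WNT5B, a ligand linked to noncanonical signaling and the most abundant of the list at 8.27 TPM, had 1412.9, 1233.6 and 1295.8 normalized counts in DMSO and 757.5, 826.5 and 820.1 in Chelator, a log2 fold change of -0.71 (adjusted p 4.14e-10, DESeq2). The genes that rose, WNT9A and WNT11, were at means of 0.15 and 0.16 TPM and were named after their values were seen. WNT9A had 10.4, 9.5 and 12.9 normalized counts in DMSO and 103.0, 71.7 and 83.4 in Chelator.

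Among receptors and surface enhancers, 4 rose and 8 fell of the 18 with an adjusted p, or 2 and 9 with centring, at a median log2 fold change of -0.19. The most abundant, the coreceptor LRP5 at 27.7 TPM, fell slightly, with 11365.2, 11202.3 and 11921.3 normalized counts in DMSO and 9923.2, 9377.3 and 10202.5 in Chelator (log2 fold change -0.23, SE 0.07). The Frizzled genes FZD4, FZD1, FZD5, FZD8 and FZD9 fell by 0.83, 0.72, 0.57, 0.95 and 0.76 on the log2 scale, and FZD7 rose by 0.39 but did not pass with changes centred (0.17), with limma on TPM, or without DMSO replicate 3 (0.34) or Chelator replicate 2 (0.31). FZD8 and FZD9 did not pass with limma on TPM. These Frizzled genes were named after their values were seen. LGR6, a receptor for R-spondin, rose from 28.5 to 90.9 mean normalized counts (log2 fold change 1.67, SE 0.44). RSPO2 was called lower with 0, 15.6 and 9.5 normalized counts in DMSO and 0 in every Chelator library, and no fold change is given for it. It was named after its values were seen. Among surface and secreted inhibitors, 1 rose and 2 fell of 8, or 1 and 3 with centring. TRABD2A, a protease reported to inactivate Wnt proteins, rose by 1.34 on the log2 scale (SE 0.38) but by 0.80 without the length offset, where its adjusted p was 0.0612 in DESeq2. ZNRF3, the relative of RNF43 that acts on the same receptors and was also named after its values were seen, had 1474.6, 1476.2 and 1405.1 normalized counts in DMSO and 743.9, 843.0 and 825.6 in Chelator (log2 fold change -0.85). KREMEN1, the most abundant of them, gave -0.13 (SE 0.10) and did not pass, but it passed with centring (-0.34), without the length offset (-0.29) and with transcripts of at least 1000 bases alone (-0.41).

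Among 32 tested genes of the cytoplasmic relay and destruction complex, 7 rose, 8 fell and none was called, and with centring 3 rose and 14 fell. PPP2CA, the catalytic subunit of the phosphatase PP2A and the most abundant at 303 TPM, fell by 0.20 on the log2 scale (SE 0.07), a difference that did not pass without DMSO replicate 3 or Chelator replicate 2 or 3, with edgeR (-0.16), with limma on TPM or with transcripts of at least 1000 bases alone (-0.10). Of the others, USP34, a deubiquitinase that acts on axin, fell by 0.77, and the tankyrase TNKS, which marks axin for degradation, rose by 0.53. Its relative TNKS2 fell by 0.27 but did not pass without Chelator replicate 2 (-0.22) or with limma on TPM. The casein kinases CSNK1A1, CSNK1D and CSNK1E rose by 0.22, 0.45 and 0.34, of which CSNK1A1 came to 0.01 and CSNK1E to 0.12 with changes centred and then did not pass, nor did CSNK1A1 without the length offset (0.06). Those named after PPP2CA were chosen after their values were seen.

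Of 21 nuclear partners of beta-catenin with an adjusted p, 5 rose and 4 fell, or 1 and 8 with centring. TLE2, one of the Groucho corepressors that bind TCF proteins, rose just past the fold limit, from 899.9, 913.3 and 1406.3 normalized counts in DMSO to 2172.6, 1973.0 and 2404.8 in Chelator (log2 fold change 1.03, SE 0.16). It passed the test in every setting but lay under the fold limit in some, at 0.81 with centring, 0.84 without the length offset, 0.71 with transcripts of at least 1000 bases alone, 0.91 without DMSO replicate 1, 0.92 without DMSO replicate 2 and 0.95 without Chelator replicate 3. TLE5, the most abundant at 277 TPM, gave 0.07 (SE 0.06) and passed without the length offset alone (0.16). The coactivator BCL9 fell by 0.88, the corepressor-complex subunit TBL1X by 0.82 and the chromatin remodeller CHD8 by 0.61 on the log2 scale, 3 genes chosen after their values were seen. Of the adhesion partners, 3 of 6 rose and none fell, or 2 with centring. One of them, CTNNA2, a neural relative of CTNNA1, overlapped between the groups, with 0.7, 4.9 and 7.5 normalized counts in DMSO and 20.9, 5.6 and 49.9 in Chelator. JUP, the close relative of beta-catenin also called plakoglobin, gave 0.02 (SE 0.07), and CTNNA1, which links beta-catenin to actin, rose by 0.59. CTNNA1 and CTNNA2 were named after their values were seen.

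Reported beta-catenin and TCF targets included the largest rise among the pathway genes, that of CD44. Of 18 with an adjusted p, 8 rose and 3 fell, or 7 and 4 with centring, and 7 were called, all higher, where 8.18% of all genes were called higher. The median log2 fold change of the list was 0.36. CD44, a hyaluronan receptor, had 72.2, 31.7 and 61.8 normalized counts in DMSO and 2630.7, 2706.3 and 2668.6 in Chelator, a log2 fold change of 5.65 (SE 0.18, adjusted p 9.61e-203 in DESeq2). JUN, a subunit of the AP-1 transcription factor, rose by 2.31, the differentiation inhibitor ID2 by 2.08 and the kinase SGK1 by 1.94 on the log2 scale. The other called genes, named after their values were seen, were PPARD, CCND1 and EPHB2, of which EPHB2 had at most 7.4 normalized counts in any DMSO library. MYC, the most abundant of the list at 160 TPM, fell by 0.28 (SE 0.08), with 24505.6, 22074.0 and 24737.1 normalized counts in DMSO and 17982.6, 19620.5 and 21048.5 in Chelator. Those that did not pass were SP5, ASCL2, BAMBI, TBX3, PTTG1, SOX4 and TNFRSF19, named after their values were seen. Their log2 fold changes were -0.76, -0.36, 0.12, 0.09, 0.04, 0.97 and 0.32, the last on at most 9.1 normalized counts per library. AXIN2 and RNF43, also transcribed in response to beta-catenin in many tissues, stand among the members and not in this list, at -0.08 and -0.83.

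**Figure D5:**
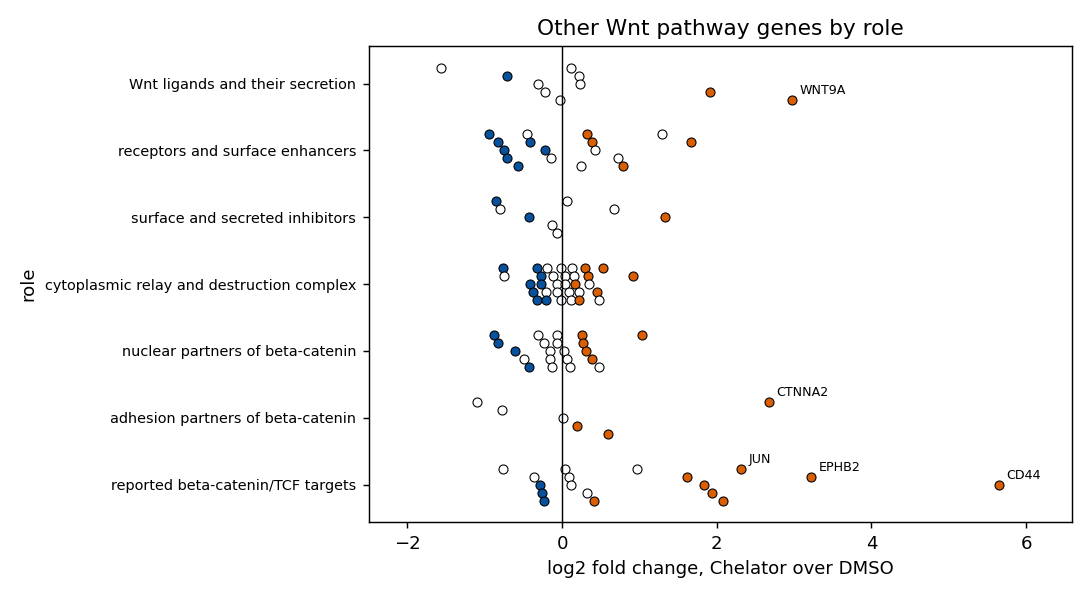
Log2 fold change, Chelator over DMSO (horizontal axis), of the other pathway genes with an adjusted p, grouped by role (vertical axis), filled where the adjusted p was under 0.05 (orange higher, blue lower) and open otherwise. RSPO2, at 0 in every Chelator library, is not drawn, and CD44 lies farthest out at 5.65.

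Promoters of the members were searched for 4 short motifs. RefSeq promoter windows on GRCh38.p14, from 250 bases before to 50 bases after a transcript start, were found for 9 members, all but AXIN2, with 14 windows in all. Every window of TCF7 and LEF1 lay downstream of the full-length coding start of its gene. The promoters of the full-length forms of TCF7 and LEF1 were therefore not searched. The TCF and LEF motif was searched in the forms CTTTGAT and CTTTGAA on both strands. It was in none of the 14 windows, where 2.6% and 4.4% of 35116 windows held it. The core of the hypoxia response element in the form GCGTG was in 1 window each of AMER1, APC, AXIN1, GSK3B and RNF43, which is 35.7% of the 14 windows beside 36.5% of all windows. In the form ACGTG it was in 1 window each of APC and TCF7L2, 14.3% of the 14 beside 21.4% of all windows.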

How the data were processed

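The 6 quantification files, 3 DMSO and 3 Chelator, were used as deposited. The authors made the estimated counts with Salmon 1.10.2, which divides reads shared by several transcripts, and the deposited TPM values are those counts scaled by effective length. The deposited transcript lengths and effective lengths came in the same files. The transcript annotation and the strand setting were not given in the sources used here. Of 252045 transcripts, 251142 matched GENCODE release 44 by identifier and version, 470 by identifier alone and 433 not at all, and the last were left out.

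Counts and TPM were added up by gene (62252 genes), and counts were rounded to whole numbers. A gene was tested if its total exceeded 10 (26074 genes, 24542 with an adjusted p). DESeq2 1.42.0 compared Chelator with DMSO by a Wald test with average transcript length as an offset, and p-values were adjusted over all genes by Benjamini-Hochberg. Transcript usage was tested with edgeR 4.0.16 (diffSpliceDGE, Simes p) on transcripts that reached 10 counts in 3 or more libraries, and limma 3.58.1 served as an alternative. Isoform classes were compared by an exact permutation test over the 6 libraries. A full-length transcript was a protein-coding one that starts at the most upstream annotated coding start of its gene. Motifs were counted in the RefSeq windows and sequences were read from GENCODE transcripts. The scripts were tested on simulated data, in which the share of false calls by DESeq2 was above the nominal level when few genes were changed and under it when many were.

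The members and the lists of other pathway genes were chosen with earlier results of these data known. The genes named were the 10 members, for each role the most abundant gene and up to 4 called genes with the largest change and at least 50 mean normalized counts, the top and most changed transcript of each member, and the 3 genes nearest to AMER1 among those with at least 500. Other pathway genes are marked in the text, and the other transcripts named were chosen after their values were seen. The lists named were T cell, B cell, epithelial, fibroblast and K562 markers and 7 roles in the pathway.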

Additional observations from a re-analysis of the deposited data

How the results depend on the processing

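The members' changes are descriptions, since the choice of members used them. The log2 fold change of AMER1 was -2.02 to -1.70 over the settings tried. The number of members called was 1 and rose to 2, with RNF43, when changes were centred on their mean. Leaving out 1 library gave 1 to 2. The number with an adjusted p under 0.05 was 8, and 6 with centring. The log2 fold change of AXIN2 turned from -0.08 to 0.0121 without the length offset, and without 1 library it was -0.227 to 0.0207, above 0 without DMSO replicate 3 or Chelator replicate 1. That of TCF7L2 turned from 0.13 to -0.0864 with centring and to -0.0314 without the offset, and without 1 library it was -0.0699 to 0.312, below 0 without DMSO replicate 2. Of the other genes, TLE5 turned to -0.14 and JUP to -0.20 with centring, and JUP ran from -0.0142 to 0.0545 without 1 library, below 0 without DMSO replicate 2 or Chelator replicate 1. With centring 18 pathway genes rose and 40 fell, against 30 and 26, and over all genes the share of calls that were higher went from 75.9% to 55.5%. With limma on TPM 17 fell, and LRP5 did not pass. For these gene-level results the cause was not tested.

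The replicate numbers are shared by the groups but the labels tie nothing to them. The deviations of same-numbered libraries from their group means correlated at -0.07, 0.13 and 0.11 over 13492 genes, so the numbers were not taken as pairs. With the replicate block, 2345 genes were called against 2646, 12 other pathway genes against 14, 926 genes for transcript usage against 1105 and 0 members for usage against 2, CTNNB1 at an adjusted p of 0.138 and RNF43 at 0.115 with edgeR. The count of genes called for usage was 3192 with limma. Without 1 library it was 542 to 1066, lowest without Chelator replicate 3 and 598 without Chelator replicate 2. The number of members called for usage was 1 with at least 30 counts per transcript, and 0 to 2 without 1 library. The difference in the full-length share of TCF7 was -14.2 percentage points, -4.83 in shares of estimated counts and -3.14 with coding transcripts of at least 1000 bases alone, and -16.0 to -12.4 without 1 library. That of LEF1 was -5.42 to 2.53 and that of TCF7L2 -5.46 to 5.58. Gene sums over transcripts of at least 1000 bases, and isoform classes without incomplete coding starts or with coding transcripts of at least 1000 bases, were added after the data were seen. Low counts limit AXIN2, RNF43 and TCF7L2.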
